A study of Mus musculus with 10 samples.

Results

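The genes described here are the receptors and GLI factors of the Hedgehog pathway. They were chosen by symbol as Gli1, Gli2, Gli3, Ptch1, Smo, Hhip, Sufu, Boc and Gas1. These are 9 of the 50559 genes in the count files, and all 9 were among the 29952 genes that passed the filter on low counts. RNA sequencing was performed on formalin-fixed, paraffin-embedded (FFPE) mouse tissue in 3 groups. The 4 MYC/SMARCA4 tumors grew in CD1nu/nu mice after transplantation of granule cell precursors (GCPs) treated to overexpress MYC and to lose SMARCA4. Per the study, the injected cells were not sorted for these changes, so that not all of them need have carried both. In the tumors that grew, the study found SMARCA4 lost from all tumor cells by staining. It also found recombined Smarca4 by PCR and positive stains for GFP and MYC. The 3 P7 cerebella were of genotype Math1-creERT2::Smarca4fl/fl, and tamoxifen (0.4 mg) had been injected when the pups were 3 days old. The 3 SHH medulloblastomas (SHH MB) came from Math1-cre::Smofl/wt mice. Tumor mice were between 79 and 112 days old, while all mice of the other groups were 7 days old, so age and host cannot be told apart from the tumor type.

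Math1 drives cre in the granule cell lineage, so the P7 cerebella also carried a Smarca4 deletion in part of their cells. The transplanted GCPs came from a line with the same floxed allele and had been cultured with SHH protein before injection. Smo is the gene altered in SHH MB, and its counts hold the reads of both alleles. MYC/SMARCA4 tumors were sampled as punches and P7 cerebella as whole tissue. In bulk RNA, fewer cells of a type and less RNA per cell cannot be told apart.

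Hedgehog ligands bind PTCH1, which otherwise holds SMO inactive. Active SMO releases GLI2 and GLI3 from SUFU, so that less of the GLI3 repressor and more of the GLI activators form. GLI1, PTCH1 and HHIP are encoded by target genes of the pathway, and the latter pair dampens it. In the postnatal cerebellum, SHH from Purkinje cells drives the proliferation of GCPs, and constant activity of the pathway in these cells gives rise to SHH MB.

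GLI factors recognise the letters GACCACCCA, and the members were searched for them on both strands. RefSeq promoter windows (build GRCm38.p6, from 250 bases before to 50 bases after the gene start) were at hand for 7 members, and Gli1 and Boc were not among these. None of the 7 windows held the letters, compared to 83 of 32851 windows overall (0.253%). With up to 1 mismatch allowed, none of the 7 did either, compared to 6.74% of all windows. In a wider search, chosen after that result, 5000 bases on each side of the annotated start were read from GRCm39, the build of the count files. This start need not be the one used for the RefSeq window. The search was kept to the same 7 members, so Gli1 and Boc were not searched. Of the 7 members, Ptch1 held 2 matches and Sufu held 1. Of all 21765 protein-coding genes searched, 7.77% held at least 1. The 3 matches are shown because Ptch1 was the member with the lowest adjusted p against SHH MB, with the matching letters in capitals and 10 bases on each side.
Ptch1 near the start: tggcgcggcaGACCACCCAcgccgagggc
Ptch1 in the intron: cctcagccctGACCACCCAagtcgagcag
Sufu: aaggggtccgGACCACCCAacctgcaaaa
The match near the Ptch1 start lay at chr13:63721279-63721287 on the minus strand, 129 bases into the gene in a noncoding part of an exon. The other Ptch1 match lay in an intron at chr13:63717099-63717107, also on the minus strand. The Sufu match lay in a coding exon at chr19:46389565-46389573 on the minus strand. A match of letters is a description and does not show binding.

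Total counts ranged from 5663491 to 9352109 per library, and 3 counts corresponded to between 0.304 and 0.737 CPM, the counts scaled to a common library size with TMM factors (trimmed mean of M-values). The tumors differed more among themselves than the other libraries did. The median SD of log2 CPM over all tested genes was 0.81 in the tumors, 0.26 in P7 cerebella and 0.26 in SHH MB. The median SD over the 9 members was 1.18, 0.13 and 0.13. Myc was measured at 151 to 1574 CPM in the tumors and at 12.9 to 45.4 CPM in the other libraries. Smarca4 counts covered the whole gene, at 135 to 242 CPM in the tumors, 220 to 280 CPM in P7 cerebella and 487 to 585 CPM in SHH MB. Tumor 1 stood apart. Mitochondrial and rRNA-like genes made up 7.94% of its counts, compared to 1.79 to 4.47% in the other libraries. It also had the lowest TMM factor (0.62). Its summed proliferation markers reached 101 CPM, compared to 1458 to 1689 CPM in the other tumors, 658 to 900.3 CPM in P7 cerebella and 1826 to 2279 CPM in SHH MB. Its summed Purkinje cell markers reached 11231 CPM, compared to 336 to 2650 CPM in the other tumors, 1164 to 1300 CPM in P7 cerebella and 317 to 577 CPM in SHH MB. The summed markers of mature granule neurons and of myelinating oligodendrocytes were also higher in tumor 1 than in any other library, at 6804 and 3874 CPM. The markers also separated the groups compared. Against SHH MB, 4 of 6 markers of mature granule neurons and 3 of 6 Purkinje cell markers were called higher in the tumors, while 3 of 5 markers of oligodendrocyte precursors and 1 of 6 markers of GCPs were called lower, and of 8 markers of astrocytes and Bergmann glia 1 was higher and 1 lower. Against P7 cerebella, 4 of 6 markers of mature granule neurons were called higher, and 3 of 8 markers of astrocytes and Bergmann glia, 2 of 5 of oligodendrocyte precursors and 1 of 6 of GCPs were called lower. Of all genes, 3.99% were called higher and 2.27% lower there. No marker of the proliferation, mature granule neuron, Purkinje cell and myelin lists was at 0 in any library. The part of these differences in the results below was not tested. Tests of the members and counts of the wider lists are given with and without tumor 1, while group means and correlations include it.

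**Figure D1:**
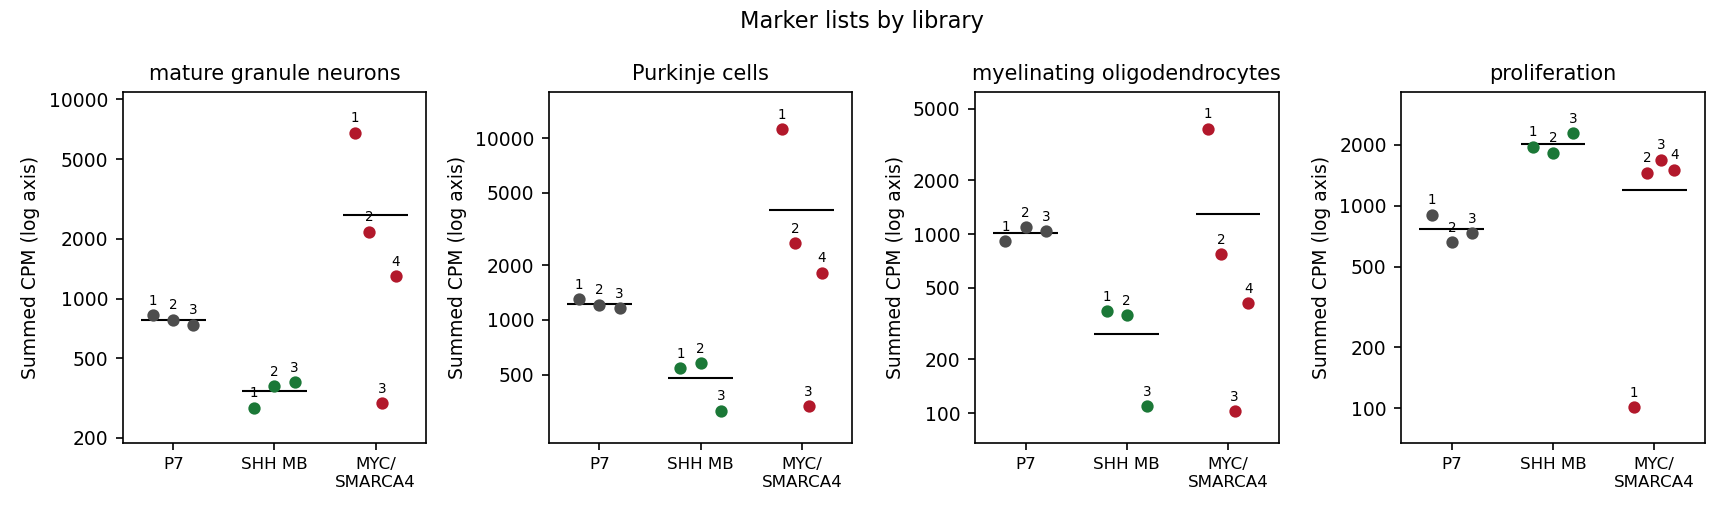
Summed CPM of 4 marker lists by library (log axis). Points are libraries with their replicate number, and lines are group means. Tumor 1 is highest for the mature granule neuron, Purkinje and myelin lists and lowest for proliferation.

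In 7 of the 9 members, all but Sufu and Gli3, every SHH MB was above every library of both other groups. The share of all genes with this order was not computed. It cannot exceed the 8.3% of genes in which no tumor reached the lowest SHH MB. Of the 9 members, 3 were significantly lower in the tumors than in SHH MB at an adjusted p of at most 0.05, namely Ptch1, Boc and Hhip, and 0 were higher. Across all tested genes, 2.26% were called lower and 2.43% higher. The median log2 fold change of the members was -1.51, compared to 0.008 over all tested genes. In 8 of 9 members, all but Gli3, no tumor reached the lowest SHH MB, which held for 8.3% of all genes in this direction. No member was called between MYC/SMARCA4 tumors and P7 cerebella, with 3.99% of all genes called higher and 2.27% called lower. The members' median log2 fold change there was 0.12, compared to -0.05 over all genes. At an unadjusted p under 0.05, 2 members differed, Gli3 and Boc, which ranked 4372 and 7098 by p among all 29952 genes. Genes outside the members thus passed this limit in large numbers too. DESeq2 called 0 members, with 3143 of 30237 genes called higher and 1342 lower. With limma on the deposited VST values it was also 0, with 553 of 46123 genes higher and 567 lower. The comparisons share libraries, so that their results are not independent.

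**Figure D2:**
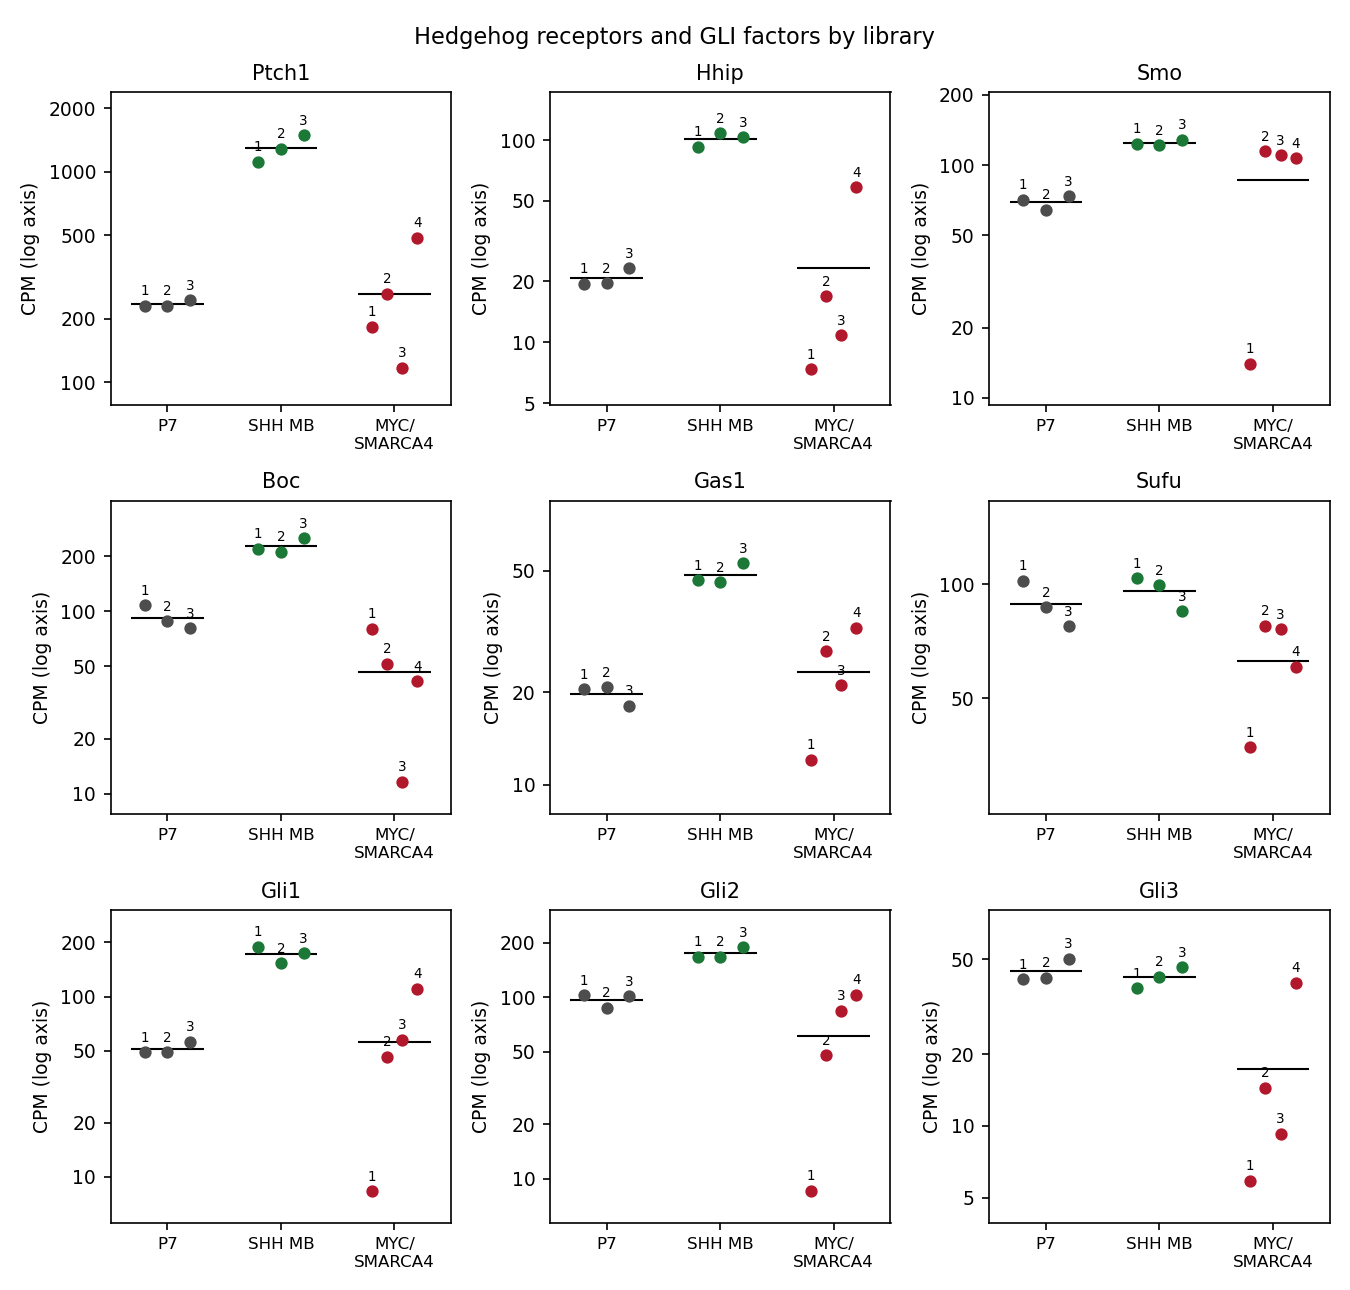
CPM of the 9 genes by library (log axis, scale differs by panel). Points are libraries with their replicate number, and lines are group means. SHH MB lies above both other groups in 7 panels. Sufu and Gli3 are the exceptions, and tumor 1 is the lowest tumor in 7 panels, all but Ptch1 and Boc.

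Between SHH MB and P7 cerebella, the result depended on which libraries set the error. In the fit over all 10 libraries, whose error includes the spread of the tumors, 0 members were called, with 0.177% of all genes called higher and 0.0467% called lower. At an unadjusted p under 0.05, 5 members were higher, with ranks by p between 77 and 1291 of 29952 genes. DESeq2 called 3 members higher, with 333 of 18207 genes called higher. With limma on the deposited VST values it was 1 member, with 59 of 46123 genes. When only these groups were fitted, 7 members were called higher in SHH MB, namely Ptch1, Hhip, Gli1, Boc, Gas1, Smo and Gli2, with 13.4% of all genes called higher. The same 7 had no overlap between the groups, as had 17.8% of all genes in this direction. No member was called lower in this fit, with 10.3% of all genes called. The fold changes hardly moved between the fits, and the median of the members in the shared fit was 1.29, compared to -0.09 over all genes. Without tumor 1, the shared fit called 5 members higher (Ptch1, Hhip, Gli1, Smo and Gas1), against 2.86% of all genes.

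Leaving out 1 tumor also changed the other comparisons. Without tumor 1, 6 members were lower than in SHH MB, as Gli1, Gli2 and Gas1 joined Ptch1, Boc and Hhip, with 4.75% of all genes called lower. Against P7 cerebella, Smo was then higher and Boc lower in the tumors, with 9.64% of all genes called higher and 6.11% lower. Without tumor 3, 5 members were lower than in SHH MB, and 13.9% of all genes were. In the study's comparison with human medulloblastomas, tumor 3 was the exception that clustered with human SHH MB. When only the tumors and SHH MB were fitted, Ptch1 alone stayed called, with 1.15% of all genes called lower. Without SHH MB replicate 3, no member was called against SHH MB, and without SHH MB replicate 1 or 2, Ptch1 alone was. Of all genes, 257, 312 and 292 were called lower without SHH MB replicate 3, 1 and 2. Under the stricter limits that the study used for its volcano plots, an adjusted p of 0.01 or less together with a log2 fold change of 2.5 or more, no member was called in any comparison. Of all genes, 0.601% passed these limits between tumors and SHH MB, 0.29% between tumors and P7 cerebella and 0.01% between SHH MB and P7 cerebella. For its enrichment and pathway analysis, the study used a lower fold change limit with the same adjusted p, and reported SHH signaling as downregulated. The study tested with limma and took this result from pathways over all mouse genes, not from single members. In the shared fit used here, which is another test, Ptch1 alone of the members passed that limit, against SHH MB (-2.30, adjusted p = 0.00875). The share of all genes there was not computed.

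**Figure D3:**
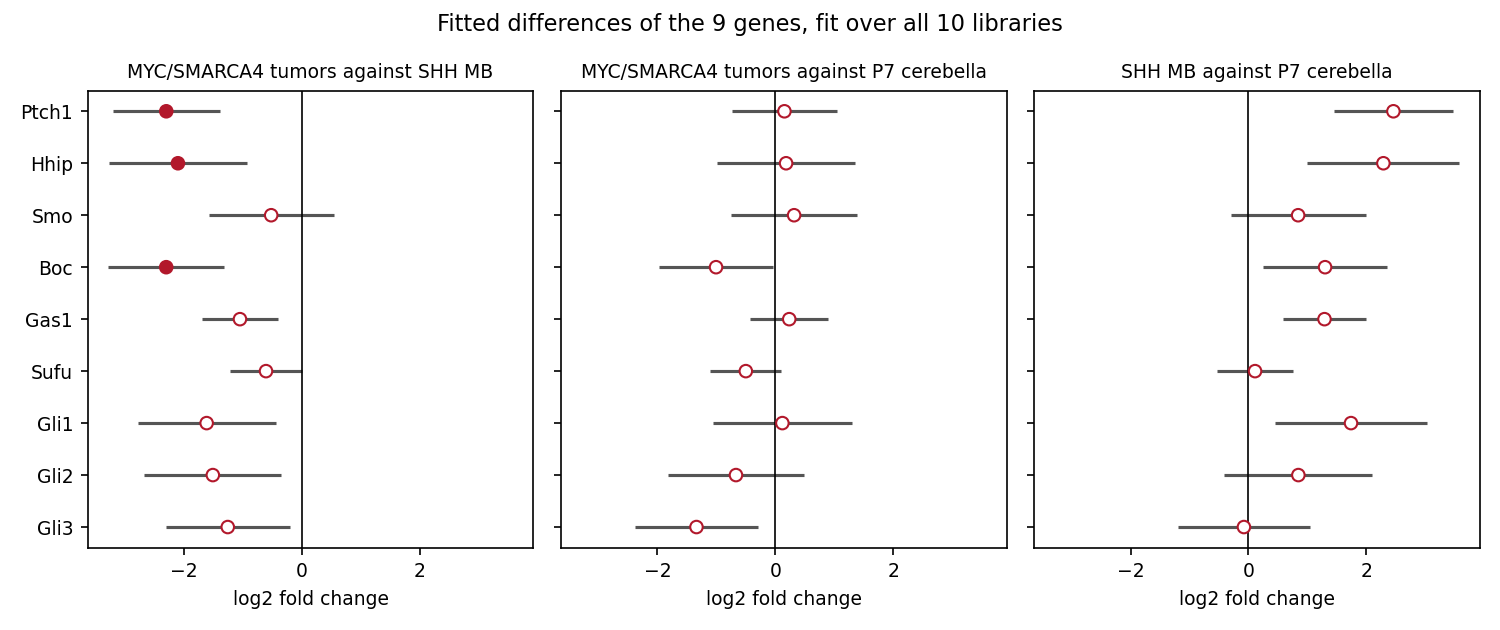
Log2 fold changes of the 9 genes in the 3 comparisons, with 95% confidence intervals, from the fit over all 10 libraries. Filled points passed an adjusted p of 0.05. Ptch1, Hhip and Boc are filled in the comparison of MYC/SMARCA4 tumors with SHH MB, and no point is filled in the others.

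Ptch1, which encodes the receptor, lies at chr13:63656142-63721412 on the minus strand of GRCm39. It was measured at 1112, 1283 and 1492 CPM in the 3 SHH MB. The P7 cerebella had 231, 231 and 246 CPM. The tumors had 184, 263, 117 and 485 CPM. Every SHH MB was thus above every other library, and the tumors lay on both sides of the P7 cerebella. Ptch1 was lower in tumors than in SHH MB by a log2 fold change of -2.30 (SE 0.42, adjusted p = 0.00875), a 4.94-fold difference. This call was lost without SHH MB replicate 3 (adjusted p = 0.058). Against P7 cerebella, the log2 fold change was 0.16 (SE 0.41, 95% confidence interval -0.74 to 1.05), and it was -0.40 without tumor 4. SHH MB exceeded P7 cerebella by 2.46 (SE 0.47, adjusted p = 0.0594) in the shared fit and by 2.48 (SE 0.13, adjusted p = 9.33e-14) when only these groups were fitted. Other genes overlap Ptch1 on the same strand (A930032L01Rik and Gm61506), so its counts are uncertain to that extent.

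Hhip encodes a membrane protein that binds Hedgehog ligands and keeps them from PTCH1, and lies at chr8:80692480-80784658. It was measured at 92.9, 108 and 103 CPM in SHH MB. P7 cerebella had 19.5, 19.6 and 23.2 CPM. The tumors had 7.37, 17.0, 10.8 and 58.3 CPM. As with Ptch1, all SHH MB were at the top. Only tumor 4 was above the P7 cerebella for Hhip, while tumors 2 and 4 were for Ptch1. The log2 fold change of tumors against SHH MB was -2.11 (SE 0.54, adjusted p = 0.0432). It was called in 11 of 19 alternatives and lost, among others, without tumor 2 (adjusted p = 0.109) or without any single library of P7 cerebella or SHH MB (adjusted p between 0.0652 and 0.162). Against P7 cerebella, the fold change was 0.18 (SE 0.54) and turned to -0.85 without tumor 4. Between SHH MB and P7 cerebella it was 2.29 (SE 0.60, adjusted p = 0.214) in the shared fit and 2.32 (SE 0.14, adjusted p = 6.57e-13) with these groups alone.

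Boc encodes a co-receptor that presents Hedgehog ligands to PTCH1, and lies at chr16:44305290-44379432. SHH MB had 219, 212 and 251 CPM, and P7 cerebella had 108, 87.8 and 80.9 CPM. The tumors had 80.1, 51.6, 11.7 and 41.4 CPM, all below the lowest P7 cerebellum, with tumor 1 just under it. In contrast to the other members, Boc was highest in tumor 1 among the tumors. Boc was lower in tumors than in SHH MB by -2.30 on the log2 scale (SE 0.46, adjusted p = 0.0146), and the call was lost when any SHH MB library was left out (adjusted p between 0.0559 and 0.0774). Against P7 cerebella, the log2 fold change was -1.004 (SE 0.45, adjusted p = 0.185), which became -1.52 (adjusted p = 0.0184) without tumor 1 and -0.87 (adjusted p = 0.0168) without tumor 3. Groups without overlap in this direction were found for 10.7% of all genes, and among members for Boc and Gli3.

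Gas1, a single-exon gene at chr13:60322219-60325179, encodes the other co-receptor examined, which is anchored to the membrane. It was measured at 46.6, 45.9 and 52.8 CPM in SHH MB. P7 cerebella had 20.5, 20.8 and 18.1 CPM, and the tumors had 12.04, 27.3, 21.1 and 32.5 CPM. All tumors were below SHH MB, and 3 of 4 were above every P7 cerebellum. The log2 fold change against SHH MB was -1.05 (SE 0.30, adjusted p = 0.0674) and passed the threshold without tumor 1 (adjusted p = 0.00811) and without tumor 3 (adjusted p = 0.037). Against P7 cerebella it was 0.24 (SE 0.31). SHH MB exceeded P7 cerebella by 1.29 (SE 0.33, adjusted p = 0.197), and by 1.31 (SE 0.15, adjusted p = 9.57e-08) with these groups alone. Gas1 and Boc therefore shared their position in SHH MB, while their values against P7 cerebella had opposite signs in the tumors. This contrast between the genes was not tested.

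Smo, the transducer that PTCH1 restrains, lies at chr6:29735407-29762532. It had 123, 122 and 129 CPM in SHH MB and 70.8, 64.2 and 73.3 CPM in P7 cerebella. The tumors had 14.0, 114, 111 and 107 CPM. Hence 3 tumors lay close together, between the P7 cerebella and SHH MB, and tumor 1 was far below every other library. In the fit, tumors had a log2 fold change of -0.52 (SE 0.49, 95% confidence interval -1.58 to 0.54) against SHH MB and 0.32 (SE 0.50, interval -0.75 to 1.39) against P7 cerebella. Without tumor 1, the difference from P7 cerebella was 0.59 and was called (adjusted p = 0.0401). SHH MB exceeded P7 cerebella by 0.84 in the shared fit (SE 0.53, adjusted p = 0.71), by 0.87 without tumor 1 (adjusted p = 0.0179) and by 0.87 with these groups alone (SE 0.12, adjusted p = 1.68e-06). Since Smo is altered by genotype in SHH MB, this value describes the model as well as the tissue.

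Sufu, which encodes the cytoplasmic inhibitor of the GLI factors, lies at chr19:46385324-46477243. SHH MB had 104, 99.6 and 84.9 CPM, and P7 cerebella had 102, 86.9 and 77.4 CPM. The tumors had 37.1, 77.6, 75.9 and 60.6 CPM. The tumors were all below SHH MB, while tumor 2 just exceeded the lowest P7 cerebellum. The log2 fold change of tumors was -0.61 (SE 0.28, adjusted p = 0.247) against SHH MB and -0.50 (SE 0.28, adjusted p = 0.272) against P7 cerebella, and it was not called in any of the 19 alternatives. SHH MB and P7 cerebella differed by 0.11 (SE 0.30, interval -0.54 to 0.76), and by 0.13 (SE 0.13) when fitted alone.

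Gli1 encodes the activator that is itself a target of the pathway and lies at chr10:127165751-127177865. It was measured at 189, 154 and 174 CPM in SHH MB. P7 cerebella had 49.2, 49.3 and 56.3 CPM. The tumors had 8.35, 46.6, 57.7 and 111 CPM. Tumor 4 was thus above every P7 cerebellum and below every SHH MB, tumors 2 and 3 were near the P7 cerebella, and tumor 1 was far below, with 34 counts. Tumors differed from SHH MB by a log2 fold change of -1.62 (SE 0.54, adjusted p = 0.113), and -1.38 (adjusted p = 0.00716) without tumor 1. Against P7 cerebella it was 0.12 (SE 0.54, interval -1.06 to 1.30). It turned to -0.42 without tumor 4 and to -0.01 without tumor 3. SHH MB exceeded P7 cerebella by 1.74 (SE 0.59, adjusted p = 0.399), by 1.77 without tumor 1 (adjusted p = 0.00542) and by 1.76 with these groups alone (SE 0.12, adjusted p = 1.99e-11). Arhgap9 overlaps Gli1 on the opposite strand, and whether the counting used the strand is not given in the sources used here.

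Gli2 encodes the main activator and lies at chr1:118761858-118982598. SHH MB had 168, 168 and 189 CPM, P7 cerebella had 103, 87.7 and 101 CPM, and the tumors had 8.599, 47.8, 84.3 and 103 CPM. The tumors were below all SHH MB, and tumor 4 alone reached the P7 cerebella. Against SHH MB, their log2 fold change was -1.51 (SE 0.54, adjusted p = 0.136). It was called without tumor 1 (-1.27, adjusted p = 0.00826) and without tumor 3 (-1.81, adjusted p = 0.049). The value against P7 cerebella was -0.67 (SE 0.54, adjusted p = 0.429). SHH MB exceeded P7 cerebella by 0.85 (SE 0.58, adjusted p = 0.742), and by 0.87 (SE 0.12, adjusted p = 2.04e-06) with these groups alone.

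Gli3, which encodes the main repressor form of the family, lies at chr13:15637809-15904611. SHH MB had 37.8, 42.2 and 46.3 CPM, and P7 cerebella had 41.2, 41.8 and 50.2 CPM. The tumors had 5.90, 14.5, 9.30 and 39.9 CPM. The SHH MB and P7 cerebella overlapped, as they did for Sufu. Of the tumors, 3 were far below both groups, and tumor 4 was within the range of SHH MB and just below the P7 cerebella. Fitted log2 fold changes of tumors were -1.26 (SE 0.49, adjusted p = 0.169) against SHH MB and -1.34 (SE 0.48, adjusted p = 0.113) against P7 cerebella. Both were called without tumor 4, at -2.10 (adjusted p = 0.00873) and -2.19 (adjusted p = 0.0109). SHH MB and P7 cerebella differed by -0.08 (SE 0.52, interval -1.19 to 1.04), and by -0.05 (SE 0.14, adjusted p = 0.842) when fitted alone.

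To compare the GLI genes with each other, CPM values were divided by the length of the canonical transcript (CPM per kb). Gli3 made up 14.4 to 16.2% of the summed GLI level in P7 cerebella and 5.58 to 6.98% in SHH MB. In the tumors its share was 16.5, 8, 3.74 and 9.47%. Tumor 1 was thus just above the highest P7 cerebellum, and tumors 2 to 4 were below all P7 cerebella. The shares of tumor 1 rest on 34 counts of Gli1, 35 of Gli2 and 24 of Gli3. Its order against the P7 cerebella is therefore uncertain. Gli1 made up 37.6 to 40.3% in P7 cerebella, 55.7 to 61.1% in SHH MB and 50.8 to 57.6% in the tumors, so that every tumor was above every P7 cerebellum. The summed level was 30.0 to 34.7 CPM per kb in P7 cerebella, 67.7 to 76.3 in SHH MB and 4.00, 20.2, 27.9 and 47.2 in the tumors.

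**Figure D4:**
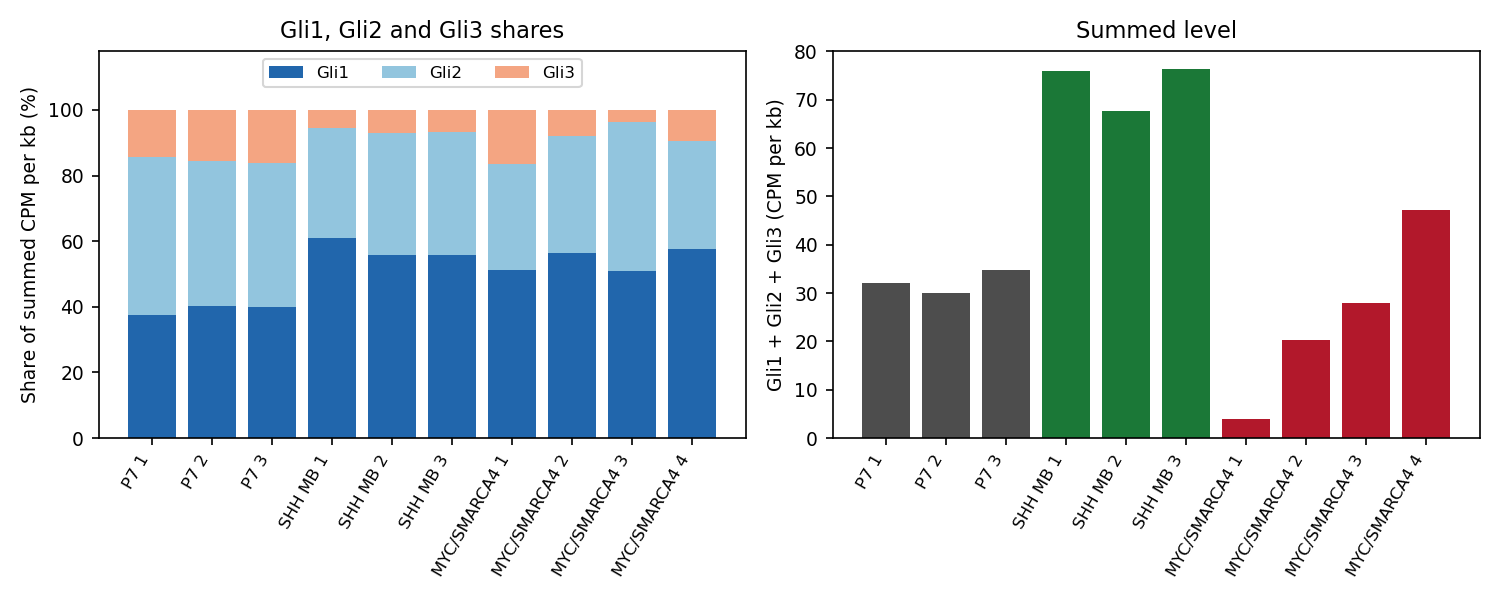
Left, share of Gli1, Gli2 and Gli3 in their summed CPM per kb in each library, in percent. Right, the summed level in CPM per kb. The Gli1 share is 50.8% or more in all tumors and SHH MB and at most 40.3% in P7 cerebella, while the summed level of the tumors runs from 4.00 to 47.2.

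Ratios between members within a library were compared with an exact two-sided permutation test, 12 tests in all. None passed after adjustment. This exact test cannot go below p = 0.1 with 3 against 3 libraries, or below 0.0286 with 4 against 3. After adjustment over 12 tests, no single ratio could therefore have passed on its own, and the lack of a call is not informative. The log2 ratio of Gli1 to Gli3 counts was 2.698 ± 0.87 (SD, n = 4) in tumors, 1.35 ± 0.05 (n = 3) in P7 cerebella and 3.16 ± 0.25 (n = 3) in SHH MB. It was higher in 4 of 4 tumors than in any P7 cerebellum, by 1.35 on average (exact permutation p = 0.0571, adjusted p = 0.24). The log2 ratio of Ptch1 to Smo was 0.74 ± 0.07 in P7 cerebella and 2.34 ± 0.18 in SHH MB, a difference of 1.61 without overlap (exact permutation p = 0.1, adjusted p = 0.24). In the tumors it was 2.68, 0.17, -0.94 and 1.15. It was highest in tumor 1, where Smo was lowest, and spread over both other groups. The log2 ratio of Gli1 to Ptch1 was lower in SHH MB than in P7 cerebella by 0.71 (-1.89 ± 0.30 and -1.17 ± 0.06), again without overlap, and ran from -3.42 to -0.004 in the tumors.

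Per kb of transcript, Ptch1 had the highest mean level of the members in each group, with 157 CPM per kb in SHH MB, 28.5 in P7 cerebella and 31.7 in tumors. These ranks depended on the length used. When the length of all annotated exons was taken, Boc came out highest in P7 cerebella, Sufu fell to the fifth rank there and Gli1 took the second rank in tumors. By canonical length, the second rank was held by Boc in SHH MB (47.9 CPM per kb), Sufu in P7 cerebella (19.6) and Smo in tumors (21.3). In P7 cerebella, Sufu and Boc overlapped in level, as did Boc and Smo and also Gli2 and Gli1. In SHH MB, Boc and Gli1 overlapped, and every other pair of neighbours was separate. In the tumors, all neighbours in the order overlapped. Gli3 came last in tumors (1.95) and SHH MB (4.72), and Hhip came last in P7 cerebella (2.28).

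Genes whose log2 CPM most resembled that of a member over the 10 libraries are given as a description, since these libraries share groups and include tumor 1. For Smo they were Tpx2, Kif11 and Foxm1 (Pearson's r of 0.996, 0.995 and 0.994), all genes of mitotic cells. For Gli1 they were Troap, Insyn2a and Gjc1 (0.995, 0.98 and 0.98), and for Gli2 Cep41, Kif18b and Vcan (0.982, 0.976 and 0.976). For Ptch1 they were Rai1, Hes1 and Nes (0.989, 0.984 and 0.975), of which Hes1 encodes a Notch effector and Nes the progenitor filament nestin. For Gli3 they were Hivep1, Slit2 and Neto1 (0.977, 0.974 and 0.969). The genes nearest to Hhip were Septin10, Pdzrn4 and Bcl7a (0.979, 0.963 and 0.961), those nearest to Sufu were Pantr2, Insm1 and Tmem260 (0.975, 0.971 and 0.964), those nearest to Boc were Plekha6, Rgs20 and Sema7a (0.987, 0.984 and 0.981), and those nearest to Gas1 were Rxra, Bicra and Katnip (0.984, 0.983 and 0.982). Between members, r was highest for Ptch1 and Hhip (0.956) and lowest for Smo and Boc (0.065).

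Of 8 genes for ligands and their release, 1 was lower in tumors than in SHH MB and 2 were lower than in P7 cerebella, and 0 were higher. The median log2 fold change of this list was -0.48 and -0.64. Scube1 and Scube2, which encode secreted proteins that help release Hedgehog ligands, were the genes called. Scube2 was lower by -1.59 against SHH MB (SE 0.37, adjusted p = 0.0297, lost without tumor 2, tumor 4 or any SHH MB library, up to 0.183) and by -2.40 against P7 cerebella (SE 0.37, adjusted p = 0.00518). Scube1 was lower by -2.38 against P7 cerebella (SE 0.29, adjusted p = 0.00145). Shh itself was close to the limit of detection, with 7 to 18 counts in tumors, 13 to 35 in SHH MB and 26 to 54 in P7 cerebella, and no difference was called in the shared fit (adjusted p between 0.173 and 0.827). Without tumor 1, Shh was called lower in tumors than in P7 cerebella (log2 fold change -2.04, adjusted p = 0.0121).

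Cdon, which encodes a co-receptor related to Boc, was higher in tumors than in both other groups. It was measured at 352, 130, 67.6 and 277 CPM in the tumors. The P7 cerebella had 46.2, 49.3 and 47.7 CPM, and SHH MB had 43.2, 53.4 and 54.7 CPM. Every tumor was thus above every other library, with tumor 1 at the top. The log2 fold change was 2.03 against SHH MB (SE 0.47, adjusted p = 0.028) and 2.113 against P7 cerebella (SE 0.47, adjusted p = 0.0235). The first call was lost without any single SHH MB library (adjusted p up to 0.166) and the other without any single P7 cerebellum (up to 0.116), and both were lost when only the compared groups were fitted. Without tumor 1, the values were 1.51 and 1.62 and both were called (adjusted p = 0.0214 and 0.0112). Boc and Cdon hence lay on opposite sides of the other libraries in the tumors. Lrp2, which encodes another receptor that binds SHH, was not called in any comparison.

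**Figure D5:**
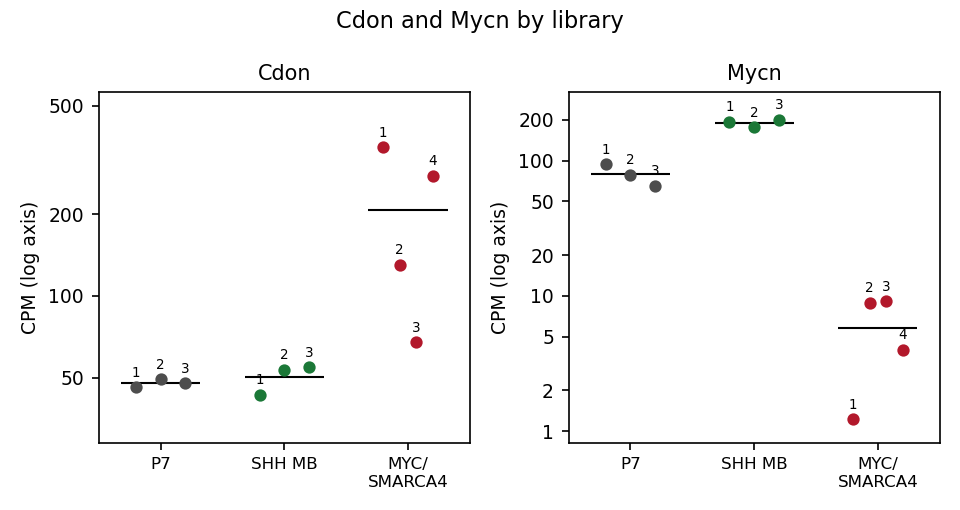
CPM of Cdon and Mycn by library (log axis, scale differs by panel). Points are libraries with their replicate number, and lines are group means. Cdon lies at 67.6 CPM or more in the tumors and at 54.7 CPM or less elsewhere, and Mycn lies at 9.16 CPM or less in the tumors and at 65.4 CPM or more elsewhere.

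Of 8 genes listed as targets in GCPs, 3 were lower in tumors than in SHH MB, and 2 of these were also lower than in P7 cerebella. The median log2 fold change was -1.51 and -0.08. Mycn, the MYC family gene that Hedgehog signaling induces in GCPs, was measured at 1.23, 8.92, 9.16 and 3.99 CPM in tumors, at 93.7, 78.5 and 65.4 CPM in P7 cerebella and at 194, 177 and 201 CPM in SHH MB. No tumor came near the other libraries, also not tumor 4, in which Gli1 and Ptch1 were above the P7 cerebella. The log2 fold change was -5.01 against SHH MB (SE 0.49, adjusted p = 0.000147) and -3.74 against P7 cerebella (SE 0.47, adjusted p = 0.00192). Sfrp1, which encodes a secreted WNT inhibitor, was lower by -6.05 (SE 0.43, adjusted p = 1.72e-05) and -4.21 (SE 0.40, adjusted p = 0.000299). Ccnd1, which encodes cyclin D1, was lower than in SHH MB by -2.87 (SE 0.47, adjusted p = 0.00485). Against P7 cerebella it had a log2 fold change of 0.10 (SE 0.46). Ccnd1 was also the 1 gene of this list called higher in SHH MB than in P7 cerebella, by 2.97 (SE 0.52, adjusted p = 0.0402), and the only wider pathway gene called there in the shared fit. Without any single library of these groups it was not called (adjusted p up to 0.309).

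Between SMO and the GLI factors, 18 genes for kinases, GLI processing and cytoplasmic regulators were examined. In the shared fit, 1 was called lower in tumors than in SHH MB and 0 were called in the other comparisons. This was Gpr161, a receptor of the cilium that restrains the pathway (-1.25, SE 0.31, adjusted p = 0.041), and its call was lost without tumor 2 or without any single library of the other groups (up to 0.188). The median log2 fold change of this list was 0.22 against SHH MB and 0.39 against P7 cerebella. Of 10 genes for the cilium and intraflagellar transport, none was called in any comparison of the shared fit, with medians of -0.20 against SHH MB and 0.21 against P7 cerebella. When SHH MB and P7 cerebella were fitted alone, 6 of the 18 regulators were higher in SHH MB and 2 were lower (Grk2 and Prkaca), and 3 of the 10 cilium genes were higher (Arl13b, Ift122 and Tulp3), compared to 13.4% of all genes called higher and 10.3% lower. In that fit, 6 of the 8 targets were higher and 1 (Ccnd2) was lower, and Scube1 and Scube2 were lower.

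The counts of these lists depended on single tumors. Of the 44 genes for ligands, regulators, cilium and targets, 0 were called higher and 5 lower in tumors than in SHH MB, and 0 higher and 4 lower than in P7 cerebella in the shared fit. Without tumor 1, 1 was higher and 9 were lower than in SHH MB, with 5% of all genes called higher and 4.75% lower. Against P7 cerebella, 7 were then higher and 8 lower, with 9.64% and 6.11% of all genes called. The 7 higher genes included the regulators Efcab7, Evc, Evc2 and Spop. Without tumor 3, 3 were higher and 9 lower than in SHH MB, with 9.57% of all genes called higher and 13.9% lower. Against P7 cerebella, 6 were then higher and 9 lower, with 11.8% and 22.8% of all genes called. Between SHH MB and P7 cerebella, the count without tumor 1 was 5 higher and 1 lower, with 854 of 29877 genes called higher and 356 lower. The calls against SHH MB or P7 cerebella of Cdon, Mycn, Sfrp1, Ccnd1, Scube1, Scube2 and Gpr161 given above were kept without tumor 1.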

How the data were processed

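RNA from FFPE tissue of 10 mice was analysed (4 MYC/SMARCA4 tumors, 3 P7 cerebella, 3 SHH MB). Libraries were made by the authors with the CORALL kit after depletion of ribosomal RNA. Per the labels, they trimmed reads with Trimmomatic 0.38.1, aligned them to GRCm39 with STAR 2.7.8a and counted them with featureCounts 2.0.1. Deposited counts are raw whole numbers for each gene. A table of VST values on a log2 scale, which the authors made with DESeq2 and deposited, was used as an alternative. Annotation and strand setting are not given in the sources used here.

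Counts were tested with the quasi-likelihood test of edgeR 4.0.16 in R 4.3.3, with all 10 libraries in the fit, a mean per group, TMM factors and filterByExpr. A log2 fold change from this fit compares mean levels and can differ from the difference of mean log2 CPM. P-values were adjusted over all 29952 genes tested by the Benjamini-Hochberg method, and genes were called at 0.05. Labels do not give separate litters or batches, so p-values measure the spread between these samples only. Total counts of 5663491 to 9352109 set the precision, and the floors cover counting error only, while the 95% confidence intervals of fold changes include the spread between libraries. Ratios used log2(count + 0.5). Gene positions and transcript lengths were taken from a GRCm39 annotation, and promoter windows from RefSeq (GRCm38.p6). DESeq2 1.42.0, limma 3.58.1, other filters and factors, fits of 2 groups, a replicate block and leaving out each library were alternatives. Scripts were tested on simulated data. The 9 members, the wider pathway lists and the marker lists were chosen with earlier results of these data known. All members were named, with Shh, Cdon, Mycn and up to 2 called genes per list and comparison with the lowest adjusted p, plus the 3 genes most correlated with each member. Ccnd1 against SHH MB, Lrp2 and the genes named from fits of 2 groups or without tumor 1 were named after their values were seen. A gene that this rule also named is not reported here.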

Additional observations from a re-analysis of the deposited data

Results flagged for a closer look

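The level of Smo in tumor 1 stood apart from the other MYC/SMARCA4 tumors. It was 3.84 log2 CPM, and the gap to the next tumor was 0.969 of the whole range of the 4 tumors, above the limit of 0.829 for 4 samples. Of 13 groups of values tested in this way, this was the 1 that passed, and chance passes about 1 in 20. Proliferation markers were also lowest and Purkinje cell, mature granule neuron and myelin markers highest in that tumor, and their part in the Smo value was not tested.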

How the results depend on the processing

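Of the fold changes of members, 443 kept direction and side of the threshold under an alternative, 39 passed it newly, 13 lost it and 18 reversed, with the cause not tested. The spread of 4 tumors, depth and a shared error limit all calls. Members called lower in tumors than in SHH MB were 3, and 5 with DESeq2, 1 with only the 2 groups fitted, 1 at an adjusted p of at most 0.01, 0 under the stricter limits and 0 to 6 with a library left out. Over all genes, DESeq2 called 1048 of 25606 lower, and the fits with a library left out called between 257 and 3979 lower. Against P7 cerebella, 0 were called higher or lower, and 1 was lower with at least 10 counts required in every library, as were 1031 of 15814 genes. With a library left out, 0 to 1 were called in either direction, while over all genes 35 to 3381 were called higher and 159 to 6551 lower. Members called higher in SHH MB than in P7 cerebella were 0, and 3 with DESeq2, 1 with limma on VST values, 1 without a filter, 1 with at least 10 counts in every library, 7 with only the 2 groups fitted and 0 to 5 with a library left out. Over all genes, DESeq2 called 333 of 18207 higher, limma 59 of 46123 and the fit without a filter 74 of 47925. With at least 10 counts in every library it was 80 of 15814, and with a library left out 0 to 854.

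Replicate numbers are shared between groups, but libraries with the same number did not deviate together (r between -0.274 and 0.162), so they were not treated as pairs. A replicate block, in which tumor 4 has no partner and does not inform the contrast, called 4 members lower in tumors than in SHH MB, with Gli3 added (log2 fold change -2.13), 1 lower than in P7 cerebella (Gli3, -2.21) and 1 higher in SHH MB than in P7 cerebella (Hhip, 2.28). Of all 29952 genes, the block called 400, 206 and 16 in these comparisons and directions. Both Cdon calls and the Scube2 call against SHH MB were lost under it. Under it the tumors' values against P7 cerebella reversed for Gli1 (-0.61), Ptch1 (-0.36), Smo (-0.021), Hhip (-0.87) and Gas1 (-0.016).

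Against P7 cerebella, other values also reversed. With limma on VST values they were -0.28 for Gli1, -0.00017 for Smo and -0.20 for Hhip. With at least 10 counts in every library they were -0.10 for Gli1, -0.15 for Ptch1, -0.11 for Hhip and -0.0050 for Gas1. With a library left out, the range was -0.42 to 0.38 for Gli1, -0.40 to 0.25 for Ptch1 and -0.85 to 0.37 for Hhip. Gli3 between SHH MB and P7 cerebella ranged from -0.14 to 0.028. The log2 ratio of Gli2 to Gli3 in tumors minus SHH MB ranged from -0.85 to 0.033, that of Gli1 to Ptch1 from -0.12 to 1.02 against SHH MB and from -0.83 to 0.31 against P7 cerebella, and that of Ptch1 to Smo from -0.61 to 0.60 against P7 cerebella.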
